A study of Mus musculus with 10 samples.

Results

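The level profile of LA-treated 3T3-L1 adipocytes was read from all 8 LA arrays of the series, out of 10 arrays in all. Of the 8, 4 were taken at 8 h and 4 at 12 h. The labels give this fatty acid only as LA. 3T3-L1 is a mouse fibroblast line that can be turned into fat-storing cells in culture. The other 2 arrays came from cultures given c9t11 CLA, a conjugated linoleic acid, 1 at 8 h and 1 at 12 h. Both fatty acids were given to cultures of the same cell line, the labels name no dose and no culture without fatty acid, and the LA arrays are numbered biological replicates 1 to 4 at each time, while both CLA arrays carry number 1. The labels do not say whether these numbers are separate cultures, so p-values measure only the spread between these arrays. Within each array the 45037 probe sets that are not array controls were ranked by deposited intensity, with rank 1 for the brightest. The ranks were averaged over the 8 LA arrays, and for each of 18193 genes the probe set with the lowest mean rank was kept. The 100 genes with the lowest mean rank, 0.550% of the genes, are the profile described here. Members were chosen by level, so their high level is a description and was not tested.

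A differentiated fat cell stores triglyceride in a lipid droplet. It takes fatty acids from lipoproteins through lipoprotein lipase, carries them in the cytosol on fatty acid binding proteins, desaturates and esterifies them, and secretes hormones such as adiponectin. The differentiation is driven by the nuclear receptor PPAR gamma together with C/EBP factors, and it is accompanied by a growth of the mitochondrial mass.

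The order is an order of signal. Probe sets bind their targets with different strength, so a higher place means a brighter probe set and does not by itself mean more transcript molecules. The deposited intensities are linear, and between 19.4% and 26.2% of an array's values lie at or below 0. The 75th percentile of intensity was 26.4 and 37.4 in the LA arrays numbered 1 and between 54.4 and 76.8 in the 6 numbered 2 to 4, so ranks and shares within an array are given beside intensities. The LA 12 h replicate 4 array stood apart in the actin control probe sets: the ratio of the 3′ to the 5′ intensity was 5.67, against 1.49 to 1.73 in the other LA 12 h arrays and 1.45 to 2.60 at 8 h. Its part in the results was not tested beyond leaving it out, which kept 96 of the 100 genes.

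Genes of the fat cell programme and genes of protein synthesis led the profile. Fabp4, the fatty acid binding protein of adipocytes, had the lowest mean rank, 3.00, and was the brightest probe set in 4 of the 8 arrays. Eef1a1, the elongation factor that brings aminoacyl-tRNA to the ribosome, followed at 7.13, and Adipoq, which encodes adiponectin, at 8.75. Tpt1, the translationally controlled tumour protein, was at 14.5. Then came the ribosomal protein genes Rps29 at 15.3, Rps28 at 21.3 and Rpl38 at 21.6. Fth1, the heavy chain of the iron store ferritin, was at 26.6. Fabp5, a second fatty acid binding protein, was at 27, the galactose-binding lectin Lgals1 at 27.9, the lipoprotein lipase gene Lpl at 28.4, and Scd1, the desaturase that makes oleate from stearate, at 28.8. Neighbours in this order were seldom separated: of the 29 adjacent pairs among the first 30 genes, 1 (Rps29 before Rps28) differed by more than the SD of the within-array difference, and 0 kept the same order in all 8 arrays.

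**Figure D1:**
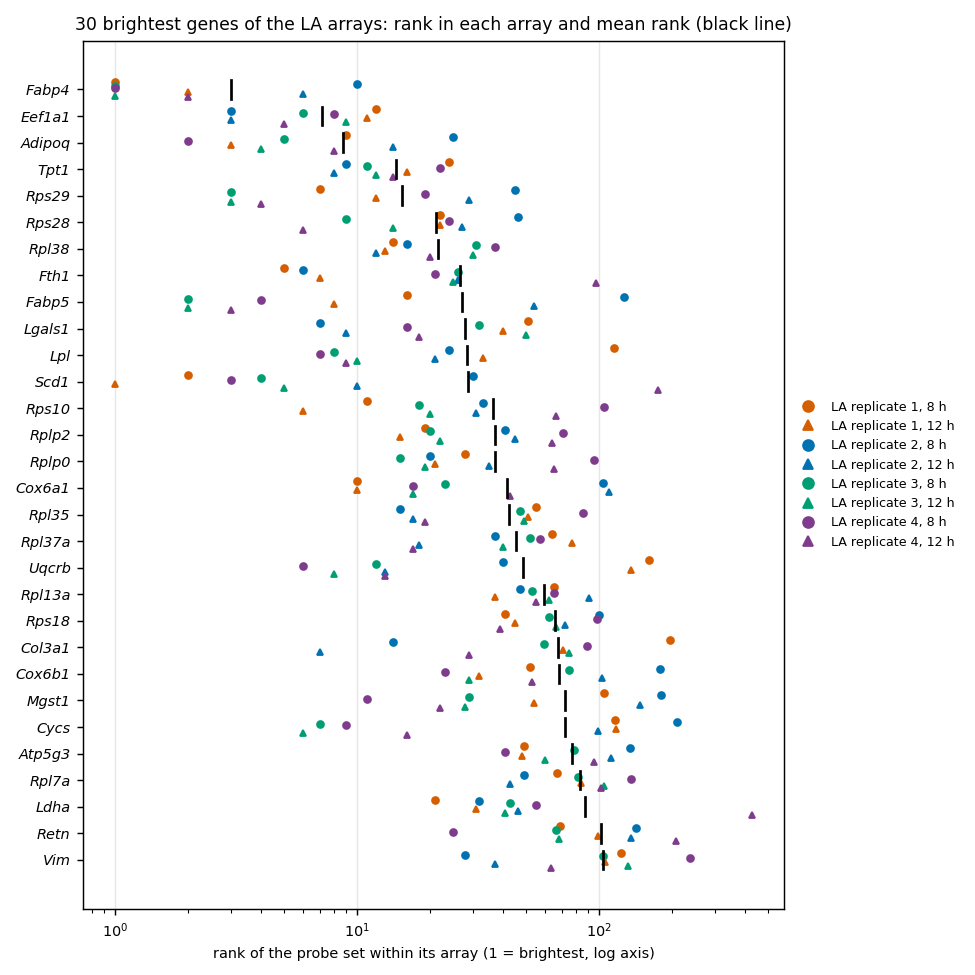
Rank of each of the 30 brightest genes in each of the 8 LA arrays (log axis, 1 = brightest), with circles for 8 h, triangles for 12 h, a colour for each replicate number and a black line at the mean rank. Fabp4 lies between ranks 1 and 10 in every array, while Scd1 lies between 1 and 30 in 7 arrays and at 175 in LA 12 h replicate 4.

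Upstream sequence is shown for leading genes that have a window in the RefSeq promoter table (build GRCm38.p6): an adipocyte gene and 3 genes from the translation factor and ribosomal protein lists. Each line gives the 100 bases just before the annotated start, 5′ to 3′ on the gene's strand. Capitals mark matches on either strand to CCAAT, the core of the CCAAT box, which reads ATTGG on the opposite strand, or to GGGCGG, the core of the GC box, which reads CCGCCC there. The marked matches do not overlap.
Adipoq, plus strand, chr16:23146436-23146535: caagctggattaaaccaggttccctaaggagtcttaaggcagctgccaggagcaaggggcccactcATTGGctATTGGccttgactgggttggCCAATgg
Eef1a1, minus strand, chr9:78481725-78481824: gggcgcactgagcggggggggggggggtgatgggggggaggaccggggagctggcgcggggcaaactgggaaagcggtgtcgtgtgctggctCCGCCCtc
Tpt1, plus strand, chr14:75845156-75845255: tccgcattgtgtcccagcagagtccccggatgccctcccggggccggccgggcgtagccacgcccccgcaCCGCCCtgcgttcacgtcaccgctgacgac
Rpl38, plus strand, chr11:114668480-114668579: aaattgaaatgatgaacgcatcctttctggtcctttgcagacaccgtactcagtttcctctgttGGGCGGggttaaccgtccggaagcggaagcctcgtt
The Adipoq stretch holds 3 CCAAT matches, and the Eef1a1, Tpt1 and Rpl38 stretches hold 1 GGGCGG match each. Of the other genes among the first 8 with a window, Rps28 held 0 matches to either word in the same stretch, and Fth1 held 0 in 1 of its windows and 1 CCAAT and 2 GGGCGG matches in the other.

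Over the whole windows, 250 bases before to 50 after a start, 82 of the 100 genes had 107 windows, and 14452 of the genes on the array had 18109. CCAAT was in 34.6% of the windows of the 100 genes and 37.4% of all windows. GGGCGG was in 58.9% against 52.3%, and TATAAA, the TATA box, in 13.1% against 9.77%. Transcripts of ribosomal proteins begin with a run of pyrimidines, which a search of whole windows on both strands does not measure. Of the pyrimidine-rich words searched on both strands, CTTTCC was in 45.2% of the 31 windows of ribosomal protein genes among the 100 and in 26.7% of all windows, and CTTTTC in 25.8% against 19.8%. A match is a description of letters and not a binding site.

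Genes of lipid storage and adipokines supplied 8 of the 100 genes, or 8 of the 48 list members with a usable probe set. Their median place among all genes was 646.5, where the median place of all genes is 9097. The 5 adipocyte markers all stood among the first 12 places. They were chosen with earlier results of these data known, so their places are a description and not a test.
Fabp4 had intensities of 8486, 7093, 10275 and 11827 in replicates 1 to 4 at 8 h and 8914, 7619, 8551 and 9350 at 12 h, a mean of 9014 ± 1500 (SD, n = 8). Both replicate 2 arrays held the lowest values, and the times overlapped.
Adipoq measured 7156, 6397, 8589 and 11501 at 8 h and 8608, 6981, 7663 and 7991 at 12 h (8111 ± 1573, SD, n = 8). Here too replicate 2 was lowest at both times and LA 8 h replicate 4 highest.
Fabp5 measured 6543, 4388, 9824 and 10854 at 8 h and 8045, 5869, 7883 and 9243 at 12 h (7831 ± 2155, SD, n = 8). It ranked 127 and 54 in the replicate 2 arrays and between 2 and 16 in the other 6.
Scd1 measured 8400, 6205, 8764 and 11117 at 8 h and 9288, 7241, 7266 and 4047 at 12 h (7791 ± 2129, SD, n = 8). It was the brightest probe set of LA 12 h replicate 1 and ranked 175 in LA 12 h replicate 4, the array with the high actin ratio; without that array its mean rank was 7.86.
Lpl measured 3796, 6410, 8155 and 10048 at 8 h and 6015, 6626, 6699 and 7886 at 12 h (6954 ± 1821, SD, n = 8). Its 2 lowest values were those of replicate 1.
Retn, which encodes the hormone resistin, had place 29 and an intensity of 3599 to 7728. Scd2, a second stearoyl-CoA desaturase, had place 44 and 3234 to 7384. Dbi, the acyl-CoA binding protein, had place 83 and 1773 to 7712.
Further lipid genes lay just outside the first 100: Gpd1, which makes glycerol 3-phosphate, had place 106, the lipid droplet gene Cidec 130, the fatty acid synthase gene Fasn 158, Dgat2, which adds the last acyl chain of triglyceride, 174, and the triglyceride lipase gene Pnpla2 185. At the other end of the list stood Rbp4, a retinol carrier, at place 11967, and Lep, which encodes leptin, at 16719, where its intensity ran from -32.4 to 57.7. Probe sets of 1 gene did not share a place: the 4 of Fabp4 had mean ranks of 3.00, 65.6, 2944 and 4704, the pair for Scd1 28.8 and 906, the pair for Lpl 28.4 and 119, and the pair for Fabp5 27 and 93.9.

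The factors that drive fat cell differentiation stood farther down. Of 20 such genes 0 stood among the first 100, and their median place was 4584. Pparg, the gene of PPAR gamma, led them at place 434 with an intensity of 1160 ± 528 (SD, n = 8), followed by Cebpa at 529 (1140 ± 465), Cebpb at 719 (798 ± 195), Cebpd at 1405, Rxra, the partner of PPAR gamma, at 1663 and Srebf1, a regulator of lipogenic genes, at 2167. Ebf2 at place 8889 and Rxrg at 15003 were last. Cav1, the main protein of caveolae, which are dense in the fat cell membrane, was the only member of its list of 8 among the first 100, at place 53. Its ranks were 389 and 317 in replicate 1 and between 18 and 162 in the other 6 arrays.

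**Figure D2:**
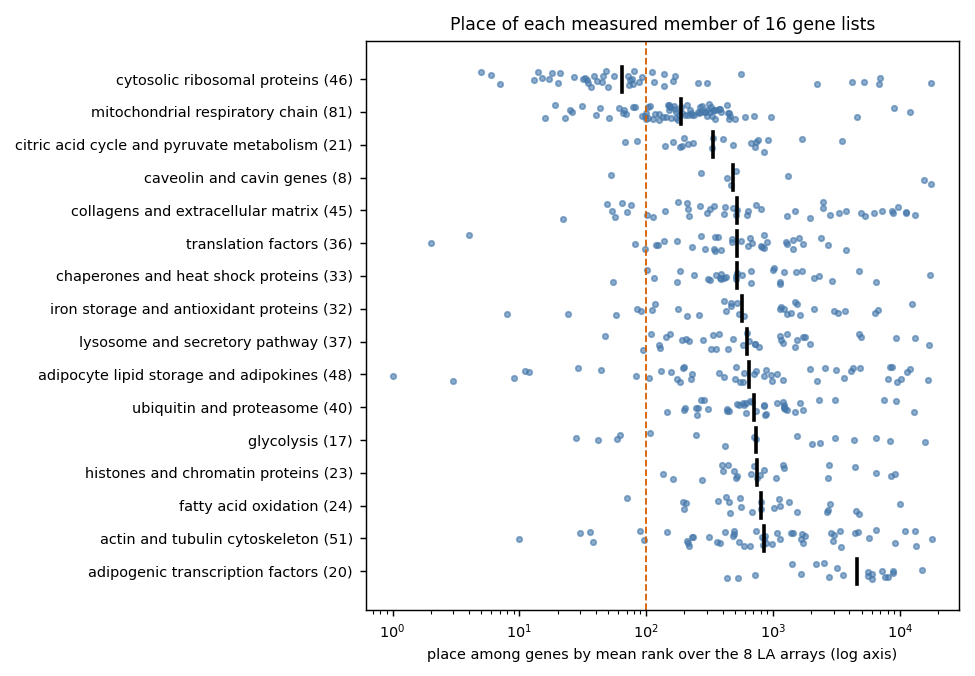
Place of every measured member of the 16 gene lists among the 18193 genes (log axis), with a black line at the median of each list, the number of measured members in brackets and a dashed line at place 100. Ribosomal proteins (median 64) and the respiratory chain (median 188) lie farthest to the left, and adipogenic transcription factors (median 4584) farthest to the right.

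Protein synthesis gave the largest block of the 100 genes by number. Of 46 cytosolic ribosomal protein genes with a usable probe set, 31 were members, 40 stood among the first 1000, and the median place was 64. The first were Rps29, Rps28, Rpl38, Rps10, Rplp2 and Rplp0, the last 2 being stalk proteins of the large subunit. Rps29 ranged from 5846 to 8925 and ranked between 3 and 45. Rplp0 ranged from 5397 to 7537 and ranked between 15 and 95. Rpl14, at place 6919, and Rps16, at place 17455 with intensities from -9.5 to 1.4, were the dimmest, so a low place for a probe set cannot be read as a low level of a protein that every ribosome holds. Rps16 also has a probe set shared with other symbols, at a mean rank of 32.5, which was left out. Of the 83 ribosomal protein genes listed, those without a probe set naming them alone were not analysed here.
Translation factors placed 4 of 36 among the 100, with a median place of 519. Eef1a1 measured 6770 to 9301 and ranked between 3 and 12. Tpt1, which is grouped with translation factors only by the list used, measured 6195 to 8033 and ranked between 8 and 24. Eif5a, a factor of elongation, had place 82 and Eef1b2, which reloads Eef1a1 with GTP, 98.

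The respiratory chain and ATP synthase supplied 19 of the 100 genes, out of 81 measured, and 78 of the 81 stood among the first 1000. The median place was 188. Subunits of cytochrome oxidase led: Cox6a1 had place 16 (4846 to 8442), Cox6b1 place 23 (3821 to 7822), and Cox4i1, Cox5b, Cox7a2 and Cox6c were also among the 100. Complex III gave Uqcrb at place 19 (3229 to 10079). Cycs, cytochrome c, had place 25 (3456 to 9268), ranking between 6 and 16 in replicates 3 and 4 and between 99 and 209 in replicates 1 and 2. The ATP synthase gave Atp5g3 at 26, Atp5b at 40, and Atp5j2, Atp5a1 and Atp5o. Slc25a5, the carrier that exchanges ADP and ATP across the inner membrane, had place 31, and the phosphate carrier gene Slc25a3 was also a member. ND5, a complex I subunit that is encoded in the mitochondrial genome, had place 69, and it measured 1016, 3558, 6215 and 7610 at 8 h and 2799, 4745, 5332 and 4458 at 12 h, lowest in replicate 1 at both times. Cox7c at place 9026 and Ndufb4 at 12076 were the dimmest of the list.
Of 21 citric acid cycle and pyruvate genes, the malate dehydrogenases Mdh2 (place 68) and Mdh1 (85) were members, and 19 stood among the first 1000 (median place 338). Glycolysis placed 4 of 17, with a median place of 731: Ldha, lactate dehydrogenase A, at 28, the aldolase gene Aldoa at 42, Pgk1, phosphoglycerate kinase, at 59 and Tpi1, triosephosphate isomerase, at 62. A probe set that names Gapdh with other symbols, at a mean rank of 48.6, was not counted. In LA 12 h replicate 4 each of Ldha (rank 429), Aldoa (379) and Tpi1 (486) had its worst rank; Ldha lay between ranks 21 and 55 in the other 7 arrays, Aldoa between 30 and 132 and Tpi1 between 99 and 162. Fatty acid oxidation placed 1 of 24, Hadh, the short-chain hydroxyacyl-CoA dehydrogenase, at place 71 (median place 803).

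Matrix and cytoskeletal genes were also bright. The labels name no undifferentiated culture of this fibroblast-derived line, so whether this signal is typical of fibroblasts was not tested. Collagens and other matrix genes placed 7 of 45 among the 100, with a median place of 515. Col3a1, a fibrillar collagen, had place 22 and measured 2888, 6800, 5626 and 5458 at 8 h and 5132, 7411, 4442 and 6709 at 12 h. It ranked 14 and 7 in replicate 2 and between 29 and 196 in the other 6 arrays. Col1a2 (place 54) had ranks of 13 and 22 in replicate 2 and between 80 and 380 elsewhere. The proteoglycan gene Bgn had place 49, Sparc, a collagen-binding glycoprotein, 57, the microfibrillar collagen gene Col6a3 64, the basement membrane collagen gene Col4a1 70, and Col6a2 76. Cytoskeletal genes placed 6 of 51 (median place 853): Lgals1 at 10, the intermediate filament gene Vim at 30, Tmsb10, a binder of actin monomers, at 36, the actins Actb at 38 and Actg1 at 90, and the actin-severing cofilin Cfl1 at 96. Lgals1 is grouped here with the cytoskeleton by the list used, although it is a lectin. Tagln (place 13454) and Cnn1 (18044), both smooth muscle genes, closed that list.

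Iron storage and antioxidant proteins placed 5 of 32 (median place 564). Fth1 measured 5070 to 8092. Mgst1, a microsomal glutathione transferase, had place 24 and 3782 to 9058. Mt1, a metal-binding metallothionein, had place 58 and measured 7960, 5423, 4318 and 3479 at 8 h and 6763, 5574, 3938 and 1682 at 12 h; its rank ran from 4 in LA 8 h replicate 1 to 606 in LA 12 h replicate 4. Sod1, the cytosolic superoxide dismutase, had place 91 and ranked 20 and 34 in replicate 1 and between 164 and 522 in the other 6 arrays. Selenop, a selenium transport protein, had place 84.
The lysosome and secretory list placed 2 of 37 (Itm2b at 47 and Serf2 at 95, median place 621) and the chaperones 1 of 33 (Hspa8, the constitutive heat shock protein, at 55, median place 523). Ubiquitin and proteasome genes placed 0 of 40, led by Psma1 at place 146 (median 705), and histone and chromatin genes 0 of 23, led by Hmgn1 at 135 (median 741). In all, 91 of the 100 genes were in a list. The other 9 were Ywhab, Nme2, B2m, Hacd2, Akr1a1, Gnas, Pebp1, Slc35e3 and the chemokine gene Cxcl12, all between places 52 and 94 and named after their places were seen. The last 5 genes inside the limit were Cfl1, Atp5o, Eef1b2, Ndufa13 and Ndufa1 (mean rank 272), and the first 5 outside it were Col6a1 (278), Calr, Cox5a, Ndufa4 and Mdm2, so the limit falls inside a run of like values.

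By mean rank most fibroblast markers were bright, and most markers of the other cell types stood in the dimmer part of the order. Of 13 preadipocyte and fibroblast markers 2 stood among the 100 (Col3a1 and Col1a2) and 10 among the first 1000, among them Col1a1 at place 209, S100a4 at 267 and Dlk1, a preadipocyte protein that is lost in differentiation, at 479. Farther down stood Pdgfrb at place 2245, Thy1 at 2303 and Cd34 at 14131, which measured 0.55 to 10.4. The summed intensity of the 13 fibroblast markers ran from 6976 to 35995 at 8 h and from 14990 to 38139 at 12 h. The lowest sum at each time was that of replicate 1. There Postn measured 68.2 and 235, against 1358 to 3743 in the other arrays, and Lox 88.5 and 333, against 996 to 3431. Not all markers were apart in this way, and Col3a1 overlapped. The summed intensity of the 5 adipocyte markers ran from 30493 to 55346 at 8 h and from 34337 to 40870 at 12 h. Of 7 brown adipocyte markers 0 stood among the first 5000; Elovl3 came first at place 6153, and Ucp1, the uncoupling protein, was at or below 0 in all 8 arrays. Cox8b, a cytochrome oxidase subunit of brown fat and muscle, was at place 7784 by mean rank but measured 506 and 876 in replicate 1 and 1072 in LA 8 h replicate 4, against 2.06 to 76.8 in the other 5 arrays. The summed intensity of the brown list ran from 73.9 to 1279 over both times. Of 12 macrophage markers 1 stood among the first 5000, Csf1r at place 4813 (49.1 to 353). Of 8 epithelial markers 1 did, Epcam at 4149 (72.1 to 214). None of the 8 endothelial, 10 skeletal muscle, 6 hepatocyte, 8 neuron, 6 lymphocyte or 5 erythroid markers measured stood among the first 5000. The summed intensity of the macrophage list was between 143 and 485 over both times, that of the endothelial list between 18.3 and 37.4. All arrays came from cultures of the same cell line, so markers of other tissues describe signal and not a count of such cells. For fat cells and undifferentiated cells of the line, fewer cells and less RNA per cell cannot be told apart in bulk cultures.

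**Figure D3:**
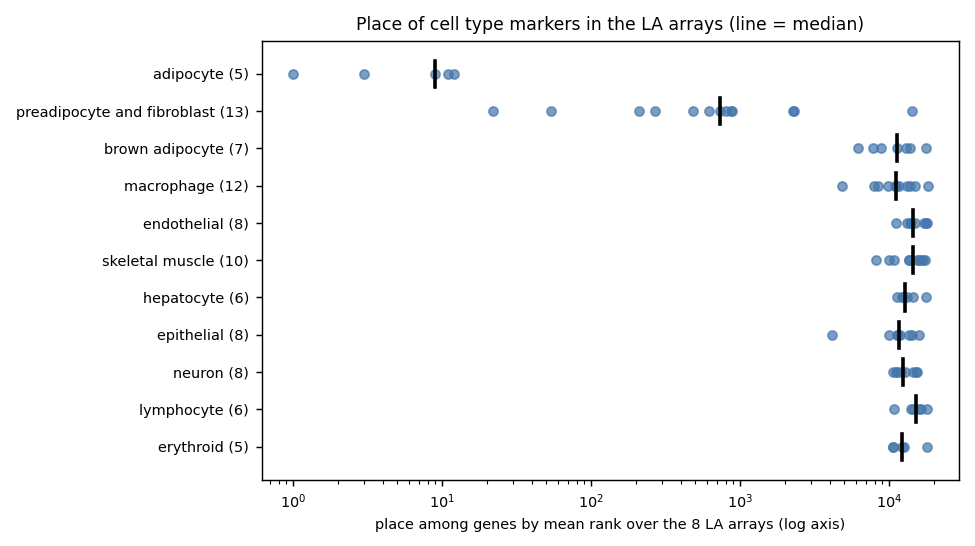
Place of the markers of 11 cell types among the 18193 genes (log axis), with a black line at the median of each list and the number of markers measured in brackets. The 5 adipocyte markers lie within places 1 to 12, the fibroblast markers have a median of 727, and the other 9 lists have medians between 11111.5 and 15214.5. The markers were chosen with earlier results of these data known, so the places of the 5 are not a test. The wider list of 48 lipid storage and adipokine genes has a median place of 646.5.

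The ranking by gene leaves out part of the brightest signal. Of the 100 brightest probe sets 52 carry 1 gene symbol, 36 carry several and 12 carry none in the annotation used. Of the 36, 33 list a ribosomal protein gene, so 58 of the 100 brightest probe sets name a ribosomal protein alone or with others. The second-brightest probe set, with a mean rank of 6.88 and ranks between 2 and 16, carries no symbol. Probe set names ending in _a_at, _s_at or _x_at mark sets whose probes match several transcripts of a gene or several genes. They stood for 75 of the 100 members and for 20.6% of all genes. With only plain _at probe sets, 34 of the 100 genes stayed in the first 100. Ribosomal proteins then gave 6 of the 100, from 22 genes that have such a probe set, while the respiratory chain gave 29 and lipid storage and adipokines 14; Eef1a1, Adipoq, Lpl, Scd1 and Rplp0 were then the first 5 genes, and Fabp5 was seventh. Fabp4 then stood far outside the first 30: its brightest plain _at probe set had a mean rank of 2944 and a mean intensity of 458. The gene at place 30 had a mean rank of 262.5. Of the 70 members with several probe sets, 52 had a second one within the 1000 brightest, and 25 had one beyond rank 10000.
The genes of the profile are short. Their median span on GRCm38.p6 was 5010.5 bases against 20222 over the 18142 genes with a length. It was 3807 bases in the 31 ribosomal protein genes and 7473 in the other 69. The median span was 13292 bases at places 101 to 500 and 16802.5 at places 501 to 1000.

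The 100 genes held 16.7% ± 1.99 (SD, n = 8) of the summed positive intensity of all genes, between 14.8% and 20.7% per array. The first 30 held 6.87% and the first 10 held 2.67%. The 46 ribosomal protein genes held 6.11% ± 0.88 (4.61% to 7.73%), and the 81 respiratory chain genes 6.80% ± 1.29. The respiratory share was 8.57% and 8.06% in replicate 1, 5.16% and 5.25% in replicate 2, and 5.82% to 7.58% in the other 4 arrays. The share of the 100 genes was also highest in replicate 1, at 20.7% and 18.6% against 14.8% to 16.7% elsewhere. After quantile normalization, 5 respiratory chain genes of the 100 lay above all other arrays in replicate 1 and 2 lay below. The lipid storage and adipokine share was 2.24% and 2.28% in replicate 2 and 2.39% in LA 12 h replicate 4, against 3.46% to 4.41% in the other 5 arrays. The matrix share ran the other way, with 3.29% and 3.05% in replicate 2 and 1.72% to 2.61% elsewhere. The antioxidant share was 2.86% and 2.40% in replicate 1 and 1.31% to 1.76% elsewhere.

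**Figure D4:**
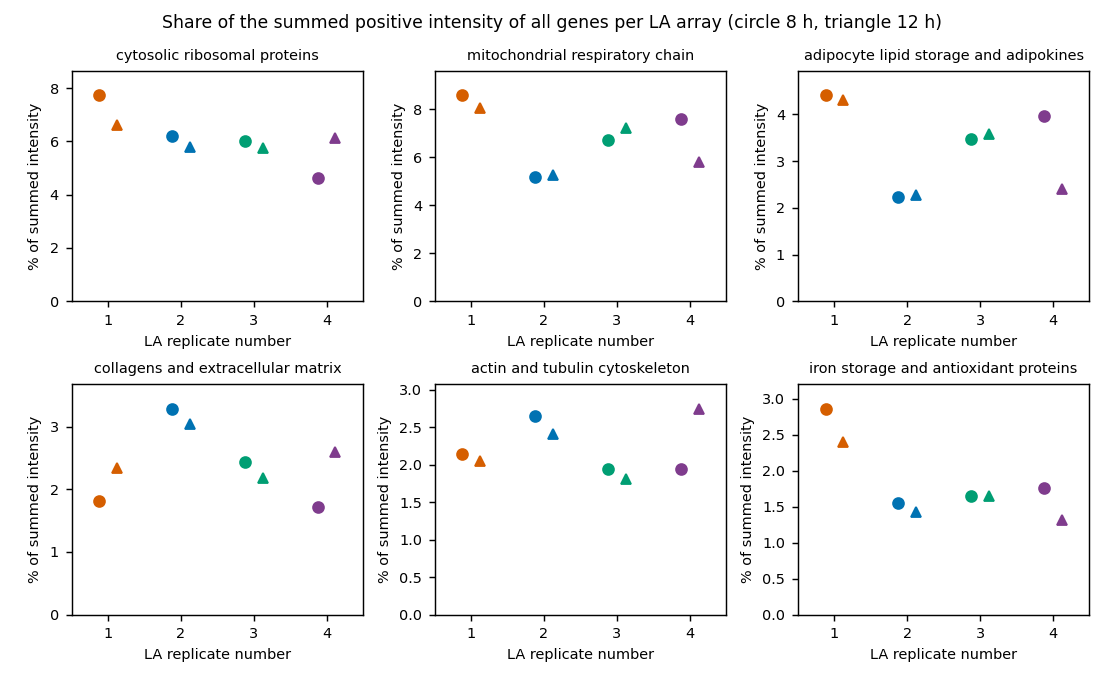
Share of the summed positive intensity held by 6 gene lists in each LA array (circles 8 h, triangles 12 h), set out by replicate number, with each vertical axis starting at 0. Replicate 2 has the lowest adipocyte (2.24% and 2.28%) and the highest matrix shares (3.29% and 3.05%) at both times.

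Which genes stood among the 100 brightest of a single array went with the replicate number for replicates 1 to 3 and not for replicate 4. Across the 8 arrays 39 genes were among the 100 of every array and 181 in at least 1; of the first 30 genes 28 were there in every array. LA arrays of the same number at the other time shared 68 to 92 of their own 100 genes (median 89.5, 4 pairs), while LA arrays of different numbers shared 61 to 79 (median 71.5, 24 pairs). The value of 68 was that of replicate 4, whose 8 h array shared 75 with LA 12 h replicate 3 and whose 12 h array shared 79 with LA 8 h replicate 3. Of the sum of squares of the log2 intensities of the 100 genes after quantile normalization, 74.2% went with the replicate number and 5.14% with time, and over all 10916 genes tested 81.9% and 4.88%. The number takes 3 and time 1 of the 7 degrees of freedom, so equal spread would give 42.9% and 14.3%. The median SD over the 8 arrays was 0.26 on the log2 scale for the 100 genes and 0.52 for all tested. The lowest SDs were those of Rpl13a (0.087), Eef1a1 (0.090), Tpt1 (0.092), Slc35e3 (0.098) and the ribosomal protein gene Rps7 (0.112). The highest were those of Mt1 (0.758), ND5 (0.725), Sod1 (0.672), Dbi (0.562) and Cav1 (0.554).

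For each replicate number, genes were counted whose 2 arrays both lay beyond the other 6 after quantile normalization, which orders a gene by its rank within the array. Of the 100 genes, 17 were higher in replicate 2 (background over the genes tested 7.02%) and 18 lower (8.13%). The 17 held Col1a2, Col3a1, Bgn, Col6a2, Lgals1, Vim, Tmsb10, Tpt1, Eef1a1 and 7 ribosomal protein genes; the 18 held Fabp4, Adipoq, Fabp5, Dbi, Sod1, Mgst1 and 9 respiratory chain genes. These counts depend on the scaling: with the deposited scale they were 14 higher and 8 lower, and after centring each array on its median 0 and 35.
In replicate 1, 18 of the 100 were higher (29.7%) and 16 lower (22.6%), both under the background. Sod1 and Mt1 stood highest above the other arrays, by 1.20 and 1.08 on the log2 scale, and ND5, Rpl7 and Cav1 farthest below, by -1.30, -1.09 and -1.06. With the deposited scale 3 were higher and 19 lower, and after median centring 74 and 1. In replicate 3, 5 were higher (2.87%) and 0 lower (4.23%), and in replicate 4, 4 were higher (11.8%) and 11 lower (10.1%). The deposited scale gave 0 higher and 1 lower in replicate 3 and turned replicate 4 to 12 higher and 3 lower; median centring gave 0 and 2, and 1 and 6. The RNA quality, culture state or handling behind a replicate number was not tested.

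**Figure D5:**
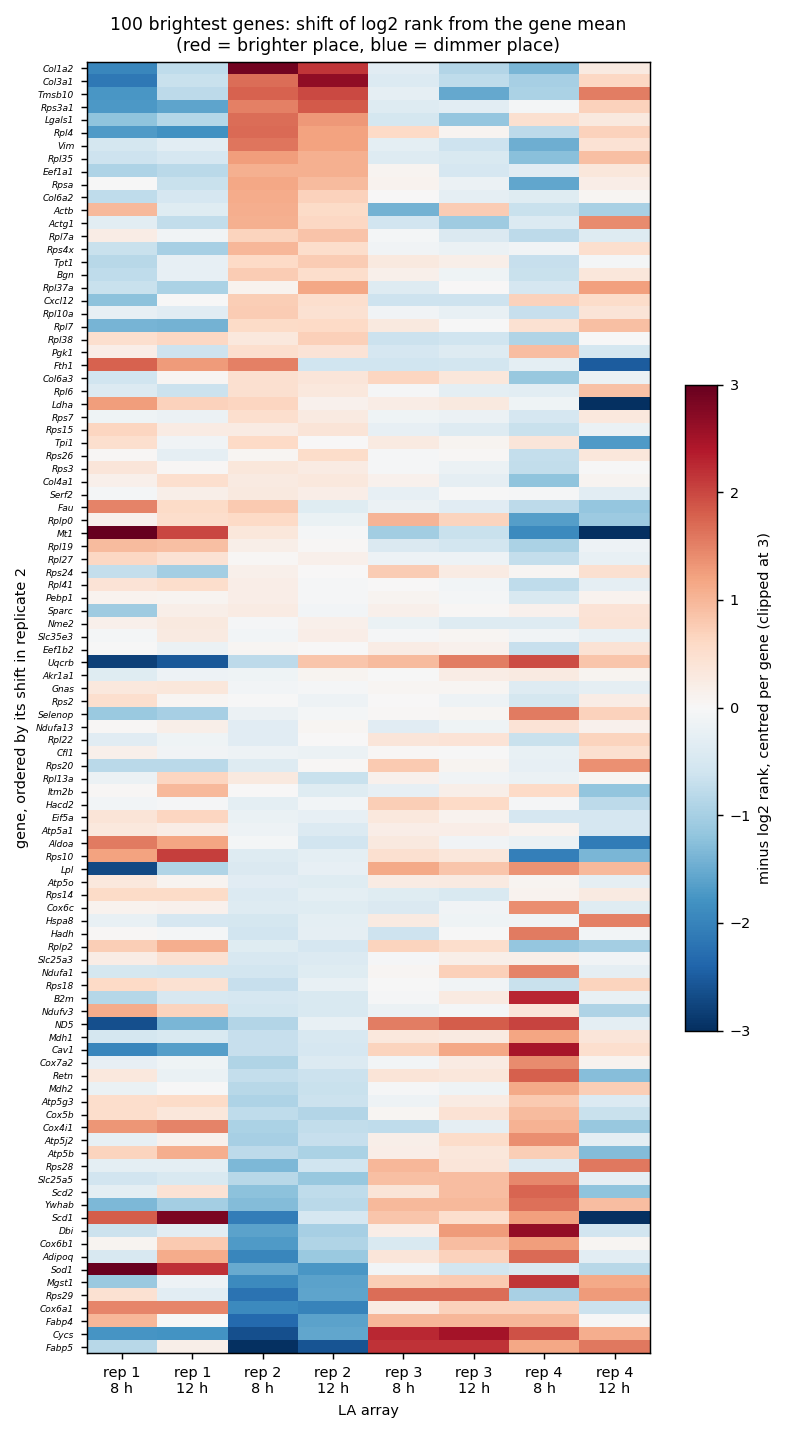
Shift of the log2 rank of each of the 100 genes from its own mean over the 8 LA arrays (red, brighter place; blue, dimmer place; clipped at 3), with the genes ordered by their shift in replicate 2. The 8 h and 12 h columns of replicates 1, 2 and 3 look alike (Spearman correlations of 0.907 to 0.949 over the 100 genes) and those of replicate 4 less so (0.485), with Col1a2 and Col3a1 at the top and Fabp4, Cycs and Fabp5 at the bottom.

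Between 8 h and 12 h no member was found to differ. With limma's moderated test on quantile-normalized log2 values, 0 of the 100 genes were called at an adjusted p under 0.05 (0% of the 10916 genes tested) and 0 had an unadjusted p under 0.05 (0.238% of all tested). Fitted differences of 12 h minus 8 h ran from -0.44 to 0.28 on the log2 scale. Their 95% intervals had a median half-width of 0.488, or 0.348 with the replicate number as a block. Fabp4 differed by -0.01 (SE 0.172) and Adipoq by 0.04 (SE 0.182), each with a limma adjusted p of 1. The low end was Tpi1, at -0.44 (SE 0.269, limma adjusted p = 1); the glycolytic genes Aldoa and Ldha followed at -0.40 each, and all 3 had their worst rank in LA 12 h replicate 4. In all 4 replicate pairs, 4 of the 100 genes were higher at 12 h (5.95%) and 4 lower (6.41%); the deposited scale gave 0 and 3, and median centring 0 and 7.

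The profile of the CLA arrays was set beside that of LA to see where it differed. The CLA arrays shared 86 and 91 of their 100 brightest genes with the LA array of the same time and number, and 67 to 86 with LA arrays numbered 2 to 4 (median 71.5). In the additive limma fit of fatty acid and time, 0 of the 100 genes were called (0% of those tested), and 0 had an unadjusted p under 0.05, against 9.12% of all tested. Fitted CLA minus LA differences ran from -1.04 for ND5 (SE 0.491, limma adjusted p = 0.457) to 0.92 for Sod1 (SE 0.443, limma adjusted p = 0.457), with 95% intervals of a median half-width of 0.507. Both CLA arrays are numbered 1, and with the replicate number as a block these differences were -0.06 (SE 0.362) for ND5 and 0.03 (SE 0.161) for Sod1. Fabp4 differed by 0.05 (SE 0.182), Adipoq by 0.04 (SE 0.193), Scd1 by 0.20 (SE 0.310), Fabp5 by 0.18 (SE 0.286) and Lpl by -0.33 (SE 0.263) without the block, with limma adjusted p from 0.503 for Lpl to 0.908 for Adipoq. With the block Scd1 differed by -0.09 (SE 0.336), Adipoq by -0.01 (SE 0.190), Lpl by 0.02 (SE 0.259), Fabp5 by 0.15 (SE 0.182) and Fabp4 by 0.00 (SE 0.175), each with a limma adjusted p of 1, so the signs for Scd1, Adipoq and Lpl depend on the block.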

How the data were processed

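Total RNA of 3T3-L1 cultures was extracted with Trizol and labelled with biotin from 15 ug for Affymetrix arrays, per the labels' protocols. The authors deposited linear intensities, 1 value per probe set and array; the software, background step and scaling behind them are not given in the sources used here. A deposited table pooled over both times was not used. The level profile rests on ranks within each array and needs no normalization. The table holds 45101 probe sets, of which 64 are array controls and were not ranked; 34945 carry 1 symbol, 932 several and 9160 none. Only those with 1 symbol were named. Of these, 34741 took the symbol of their Entrez identifier in the RefSeq table of GRCm38.p6, whether or not it changed.

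For tests, the deposited intensities were quantile normalized, raised to a floor of 14.3 (the size of the 2nd percentile) and put on the log2 scale. The brightest probe set stood for a gene, and the lowest 40% by mean (7277 genes) were left out; all 100 members passed, and being chosen as bright they had to. The limma package (3.58.1, R 4.3.3; lmFit, then eBayes with trend, two-sided, Benjamini-Hochberg over 10916 genes) fitted 4 group means, or treatment and time, on all 10 arrays; CLA, with a single array per time, borrows its spread from LA. LA arrays of the same replicate number correlated, after each time's mean was removed, at 0.855, 0.779, 0.502 and 0.552, above 0.29 at most for other numbers, so the number was also used as a block. The number of arrays limits the precision.

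Members, the 16 gene lists and the markers of 11 cell types were chosen with earlier results of these data known. Genes named are the 30 of lowest mean rank, the 5 markers, up to 6 leading and the 2 last members of each list, up to 3 leading markers of each cell type, and among the 100 the 5 highest and lowest SDs, the 5 most shifted in replicate 1 each way and places 96 to 105; others were named after their values were seen. Alternatives changed the probe set rule, the number of genes kept, the scaling, floor, filter, variance trend and block, and left out each replicate or array. numpy 2.4.6, pandas 2.3.3 and matplotlib 3.10.9 were used.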

Additional observations from a re-analysis of the deposited data

Results flagged for a closer look

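Each of 98 groups of 4 LA arrays (the shares of the gene lists and the intensities of the 30 leading genes, at each time) was examined for 1 array far from the other 3, by Dixon's criterion on the gap over the range. Chance flags about 1 in 20 groups, or 4.9 here, and 4 were found. The share of signal in iron storage and antioxidant genes was 2.86% in LA 8 h replicate 1, against 1.55% to 1.76% in the other 3 arrays. The ribosomal protein gene Rpl13a had an intensity of 4613 in LA 8 h replicate 1, against 5715 to 5939. Its rank within that array was 65, against 47, 53 and 65 in the other 3, so it stood apart in deposited intensity and not in rank. Uqcrb, a complex III subunit, had 4137 in LA 12 h replicate 1, against 6988 to 7561. Retn, which encodes resistin, had 3599 in LA 12 h replicate 4, against 4567 to 4671; that array also had the highest actin ratio. Causes were not tested.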

How the results depend on the processing

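The choice of probe sets changed the profile most among the alternatives run. Of the 100 genes 57 stayed when all probe sets of a gene were averaged, 34 with plain _at probe sets alone and 66 when probe sets with several symbols were kept. Ribosomal proteins gave 6% with plain _at probe sets, 53% with several symbols kept and 18.5% of the first 200; the respiratory chain gave 29% and 11% under the first 2 of these; lipid storage and adipokines gave 14% with plain _at probe sets and 14% of the first 50. Averaging all probe sets put Fabp4 at a mean rank of 1929, Scd1 at 467 and Lpl at 73.6. Without each replicate number in turn, 92 to 99 of the 100 genes stayed, ribosomal proteins gave 31% each time, the respiratory chain 16% to 22%, lipid storage 8% to 9%, and the 100 genes held 15.7% to 17.2% of the signal. Leaving out LA 12 h replicate 4, chosen after seeing the data, kept 96 genes (31%, 17% and 9%) and gave 16.9% of the signal. For LA over time, 0 genes were called, or 1 without the filter. For CLA against LA, 0 were called, or 5 with a floor at the 1st percentile, 28 with a floor of 2 times the size, 51 without the filter, and 0 to 2 leaving out 1 array (2 without LA 12 h replicate 1). With the replicate block 0 were called in both, and no call changed; 457 and 495 genes then had an unadjusted p under 0.05, against 26 and 996. In all 38 fits 0 of the 100 genes were called. The number of arrays and the closeness of signals near place 100 limit the order.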
